A study of Mus musculus with 20 samples.

Results

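Transcripts of 7 RNA-binding proteins that set the lifetime of inflammatory mRNAs were examined in mouse bone marrow-derived macrophages. They were Zfp36, Zfp36l1, Zfp36l2, Zc3h12a, Rc3h1, Elavl1 and Khsrp. They were chosen by gene symbol, and all 7 were found among the 17787 genes of the deposited table and passed the filter on low values. The macrophages were grown for 7 days from the marrow of male wild-type C57BL/6J mice in medium with L929 cell supernatant. All cultures carried siRNA at 50 nM for 48 h, either a Brg1 siRNA product or a control siRNA product, and treatment filled the last 6 h. Brg1, the product of Smarca4, is the motor subunit that drives nucleosome remodelling by BAF complexes. The 6 groups were Brg1 siRNA and control siRNA with vehicle (ethanol and D-PBS, n = 3 each), with LPS at 100 ng/ml (n = 3 each), and with 1 µM dexamethasone plus LPS at 100 ng/ml (Dex+LPS, n = 4 each). LPS is a bacterial cell wall component that drives the inflammatory program of macrophages, and dexamethasone (Dex) is a synthetic glucocorticoid that dampens it. Each arm rests on 1 siRNA product, and the labels do not say whether replicates came from separate animals or cultures, so the p-values reflect only how these libraries spread, which may be technical.

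Many cytokine mRNAs carry AU-rich elements, runs of overlapping UAUUUAU motifs in the 3′ untranslated region. Tristetraprolin (Zfp36) and its relatives Zfp36l1 and Zfp36l2 bind such elements through zinc fingers and bring in the CCR4-NOT deadenylase, which shortens the poly(A) tail and starts decay. KSRP (Khsrp) also binds AU-rich elements and recruits decay enzymes, whereas HuR (Elavl1) binds them and usually stabilises the mRNA. Regnase-1 (Zc3h12a) is an endoribonuclease that cuts mRNAs with stem-loops in the 3′ untranslated region, and roquin-1 (Rc3h1) binds similar stem-loops and recruits CCR4-NOT. The 7 proteins therefore include a stabiliser and a pair that reads stem-loops, and the group is wider than decay through AU-rich elements. In macrophages, tristetraprolin is known for limiting TNF output, and it binds its own mRNA. A transcript level reflects synthesis and decay together and says nothing of the protein's activity.

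The sequences that follow show the binding motif in the 3′ untranslated regions of 3 cytokine mRNAs that these factors are known to bind or cut (Tnf, Csf2 and Il6) and of the 5 members that hold it. Each line is a 30-base stretch of the GENCODE transcript, read 5′ to 3′ with T for U, and capitals mark every TATTTAT, overlapping copies included. The motif was searched on the transcript strand only. The GRCm38 positions are chr17:35199678-35199707 on the minus strand for Tnf, chr11:54247325-54247354 on the minus strand for Csf2 and chr5:30019727-30019756 on the plus strand for Il6. For the members they are chr7:28376958-28376987 for Zfp36, chr12:80108422-80108451 for Zfp36l1, chr17:84184914-84184943 for Zfp36l2 and chr8:4285777-4285806 for Elavl1, all on the minus strand, and chr1:160970042-160970071 for Rc3h1 on the plus strand.
Tnf: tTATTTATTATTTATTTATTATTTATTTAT
Csf2: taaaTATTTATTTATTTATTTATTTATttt
Il6: atttatgattgaTATTTATtatttttatga
Zfp36: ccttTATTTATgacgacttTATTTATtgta
Zfp36l1: cttatcaaaacgTATTTATtgccaaactat
Zfp36l2: aactatttaactTATTTATtatcttgtgaa
Rc3h1: tactttactcatTATTTATtgagatgagga
Elavl1: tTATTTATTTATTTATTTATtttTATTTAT

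TATTTAT occurred in 28.9% of the 13851 3′ untranslated regions scanned. These were the longest for each gene of the deposited table, from consensus coding transcripts of the annotation. Tnf held 8 copies, Csf2 held 9 and Il6 held 1. Zfp36, Zfp36l1 and Zfp36l2 held 3 copies each, in 3′ untranslated regions of 774, 1835 and 1822 bases. As many or more copies were found in 1.11% of the regions of similar length (within 20%) for Zfp36, 3.71% for Zfp36l1 and 3.70% for Zfp36l2. The 4218-base region of Elavl1 held 8 copies, a number reached by 0.0949% of similar regions. Rc3h1 held 2 copies in 7181 bases, which 45.2% of similar regions matched or exceeded. No TATTTAT was in the window of Zc3h12a (856 bases) or Khsrp (1642 bases). In the same annotation the genes span chr7:28376784-28380253 (Zfp36), chr12:80107754-80113013 (Zfp36l1), chr17:84183931-84187947 (Zfp36l2), chr4:125118423-125127840 (Zc3h12a), chr1:160906418-160974978 (Rc3h1), chr8:4285382-4325413 (Elavl1) and chr17:57021051-57031522 (Khsrp). A match of letters is a description of the sequence and not evidence of binding.

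Silencing was visible in every library. Smarca4 stood at 365, 358 and 340.2 normalized counts with Brg1 siRNA and vehicle, against 1476, 1538 and 1626 with control siRNA. It stood at 621, 559.5 and 600.1 with Brg1 siRNA and LPS, against 2989.8, 2899 and 2751 with control siRNA, and at 459.8, 414, 442 and 518 with Brg1 siRNA and Dex+LPS, against 2032, 1745, 1905 and 2181 with control siRNA. The log2 differences were -2.12, -2.28 and -2.10. Values throughout are the authors' normalized counts, and depth was 13.69 M to 18.71 M reads per library. All 8 macrophage markers examined were detected, and neutrophil markers summed to 67.8 to 565 normalized counts per library. Marker sums moved with silencing. Macrophage markers summed to 288920 to 299560 with Brg1 siRNA and 233530 to 247430 with control siRNA in vehicle, 414490 to 427520 and 270990 to 286650 in LPS, and 346060 to 355260 and 274440 to 317090 in Dex+LPS. A sum follows its most abundant genes. Of the 8, 3 were called higher and 2 lower in vehicle, 5 and 1 in LPS, and 5 and 2 in Dex+LPS. Over all genes, 20.1%, 33.1% and 34.3% were called. Neutrophil sums in Dex+LPS were 504 to 565 with Brg1 siRNA and 353 to 485 with control siRNA, and overlapped between the arms in vehicle and LPS. B cell markers, of which Cd79b and Ighm reached 10, summed to 53.2 to 70.8 with Brg1 siRNA and 629.8 to 703 with control siRNA in vehicle, 11.2 to 22.7 and 71.0 to 109 in LPS, and 3.69 to 10.3 and 94.6 to 149 in Dex+LPS. T and NK cell markers, of which only Cd4 reached 10, summed to 118 to 169.7 with Brg1 siRNA and 60.3 to 87.0 with control siRNA in vehicle, 63.6 to 176 and 23.5 to 45.1 in LPS, and 50.8 to 165 and 19.3 to 23.6 in Dex+LPS. Their part in the silencing results was not tested. In bulk RNA, fewer cells of a type and less RNA per cell cannot be told apart. Library numbers in the labels fall into a lower series of 16 libraries and a higher series of 4, whose meaning the labels do not give. The higher series is 1 library in each LPS and Dex+LPS group and none with vehicle.

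More members were called for treatment than for Brg1 silencing, as also held for all genes tested. Of those genes, 44.4% to 73.0% were called for treatment and 20.1% to 34.3% for silencing. Zfp36, Zc3h12a, Rc3h1 and Elavl1 rose with LPS, while Zfp36l1 and Zfp36l2 fell. Dex+LPS was lower than LPS for Zfp36 and Zc3h12a and higher for Zfp36l1 and Zfp36l2. Brg1 siRNA raised Zfp36l1 and Zfp36l2 under LPS, and raised these and Rc3h1 under Dex+LPS. Its largest effect among the members was on Zfp36l1, 7.01-fold under Dex+LPS.

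These calls are to be read against the rest of the genes. With limma on log2(normalized count + 1), adjusted over the 12061 genes tested, 0 of 7 members were called for Brg1 silencing in vehicle, where 20.1% of all genes were called. At an unadjusted p under 0.05, 2 of 7 passed there, and edgeR and DESeq2 on the recovered reads also called 0. Under LPS 2 of 7 were called, both higher, against 33.1% of all genes called and 17.3% called higher. Under Dex+LPS 3 of 7 were called, all higher, against 34.3% called and 19.0% called higher. The effect of silencing was higher in LPS than in vehicle for 2 of 7 members (11.4% of all genes called, 6.39% in that direction) and higher in Dex+LPS than in LPS for 1 of 7 (3.97% called, 2.75% in that direction).

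LPS changed 6 of 7 members in each arm, 4 higher and 2 lower. With Brg1 siRNA 72.8% of all genes were called, 35.4% higher and 37.4% lower, and with control siRNA 73.0%, 36.0% higher and 37.0% lower. LPS and vehicle libraries did not overlap for 7 of 7 members with Brg1 siRNA (78.8% of all genes) and 6 of 7 with control siRNA (77.6%). Dex+LPS against LPS changed 4 of 7 with Brg1 siRNA, 2 higher and 2 lower, where 44.4% of all genes were called, 21.3% higher and 23.0% lower. With control siRNA it changed 5 of 7, 2 higher and 3 lower, where 48.7% were called, 23.4% higher and 25.2% lower. Dex+LPS and LPS libraries did not overlap for 4 of 7 members with Brg1 siRNA (46.8% of all genes) and 5 of 7 with control siRNA (46.8%). With so few members, their shares are a description beside those of all genes and set the group apart in no comparison. Both responses of an arm use the same LPS libraries, so they are not independent.

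**Figure D1:**
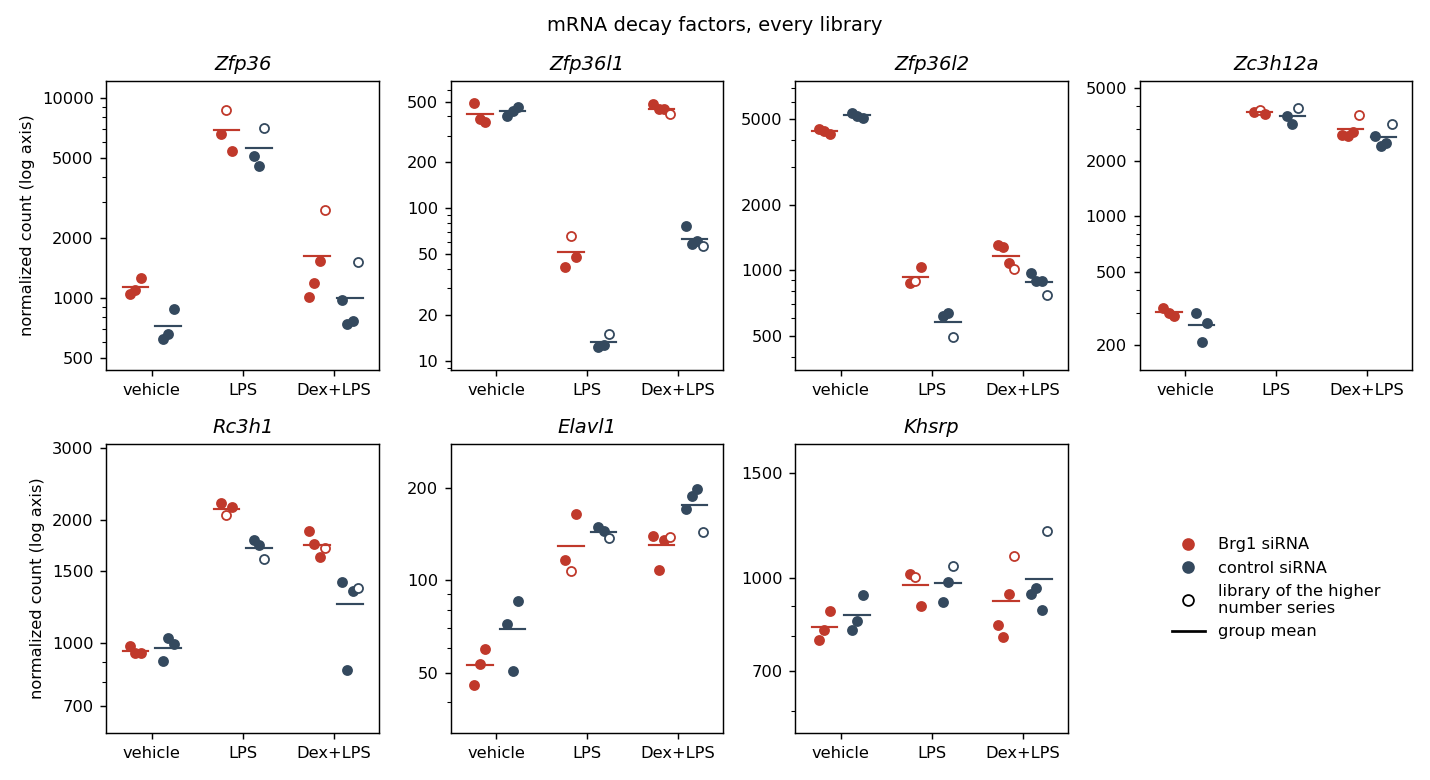
Normalized counts of the 7 members in each of the 20 libraries (points, log axis) by treatment, with Brg1 siRNA left of control siRNA a bar at each group mean and open points for the higher number series. Zfp36l1 is the member whose siRNA groups stand farthest apart, with 413 to 480.4 under Dex+LPS and Brg1 siRNA and 56.6 to 77.0 with control siRNA.

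Zfp36, the gene of tristetraprolin, was strongly induced by LPS in both arms and was much lower when Dex was present. With Brg1 siRNA it stood at 6609, 8652 and 5434 normalized counts under LPS and 1048, 1099 and 1256 with vehicle. With control siRNA it stood at 5129.6, 4579 and 7057 under LPS and 622, 664 and 881 with vehicle. Every LPS library was above every vehicle library. The rise was 5.99-fold with Brg1 siRNA (log2 change 2.58, SE 0.31, limma adjusted p = 6.24e-07) and 7.69-fold with control siRNA (2.94, SE 0.31, limma adjusted p = 1.12e-07). Under Dex+LPS Zfp36 stood at 1015, 1189.6, 1521 and 2762 with Brg1 siRNA and at 972, 738, 763 and 1505 with control siRNA. All 8 of these libraries were below all LPS libraries. Relative to LPS alone, the log2 change was -2.17 with Brg1 siRNA (4.51-fold lower, limma adjusted p = 7.43e-06) and -2.53 with control siRNA (5.76-fold lower, limma adjusted p = 1.01e-06).

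Zfp36 was not called for Brg1 silencing in any treatment. With vehicle the groups did not overlap, at 1134 ± 109 with Brg1 siRNA and 722 ± 139 with control siRNA (SD, n = 3 each), with a log2 difference of 0.66 (95% interval 0.01 to 1.32, limma adjusted p = 0.156). Non-overlap was seen for 2 of 7 members and for 46.1% of all genes in that comparison. Under LPS the groups overlapped, at 6898 ± 1628 and 5589 ± 1301 (SD, n = 3 each), with a difference of 0.30 (95% interval -0.35 to 0.96), which ran from 0.13 to 0.48 over the alternatives. Under Dex+LPS they also overlapped, at 1622 ± 789 and 995 ± 356 (SD, n = 4 each), with a difference of 0.65 (95% interval 0.09 to 1.22, limma adjusted p = 0.0695). The library of the higher number series was the highest of its group in all 4 groups that held one, at 1.44 times the mean of the others with Brg1 siRNA and LPS, 1.45 times with control siRNA and LPS, 2.22 times with Brg1 siRNA and Dex+LPS and 1.83 times with control siRNA and Dex+LPS. Its part in the result was not tested beyond the following alternatives. With the number series as a term in the fit, Zfp36 passed for silencing in vehicle (limma adjusted p = 0.00845) and in Dex+LPS (0.00207), and without the 4 libraries it passed in both as well (0.00892 and 0.0143). Under Dex+LPS it also passed without Dex+LPS replicate 1 of Brg1 siRNA (0.84, limma adjusted p = 0.0266) or replicate 4 of control siRNA (0.87, 0.0168). Without Dex+LPS replicate 4 of Brg1 siRNA, its highest library, the difference was 0.36 (limma adjusted p = 0.246). Within the lower series the Dex+LPS difference was 0.58 (3 libraries against 3), and within the higher it was 0.88 (1 against 1).

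Zfp36l1, whose protein has the same zinc finger fold, behaved in the opposite way to Zfp36. With Brg1 siRNA it stood at 41.1, 66.0 and 47.7 normalized counts under LPS, against 488, 382 and 370.0 with vehicle. With control siRNA it stood at 12.4, 12.7 and 15.0 under LPS, against 405, 432 and 463 with vehicle. LPS libraries lay far below vehicle libraries in both arms. The fall was 7.96-fold with Brg1 siRNA (log2 change -2.99, SE 0.16, limma adjusted p = 6.99e-12) and 30.3-fold with control siRNA (-4.92, SE 0.16, limma adjusted p = 4.73e-15). These folds are on the log2(normalized count + 1) scale and understate changes of low values.

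Brg1 silencing left no called difference in Zfp36l1 with vehicle, where the means were 413 ± 64.8 with Brg1 siRNA and 433 ± 29.0 with control siRNA (SD, n = 3 each; log2 difference -0.08, 95% interval -0.41 to 0.26). Under LPS each Brg1 siRNA library was above each control library, with means of 51.6 ± 12.9 and 13.4 ± 1.4 (SD, n = 3 each). The difference was 1.85 on the log2 scale (SE 0.16, 3.61-fold, limma adjusted p = 1.01e-07). Non-overlap under LPS was seen for 3 of 7 members and 46.1% of all genes. Under Dex+LPS, Zfp36l1 stood at 480.4, 449, 449 and 413 with Brg1 siRNA and at 77.0, 58.8, 61.0 and 56.6 with control siRNA. The lowest Brg1 siRNA library was thus more than 5 times the highest control library. The difference was 2.81 (SE 0.14, 7.01-fold, limma adjusted p = 8.91e-11), and it was 2.80 within the lower number series and 2.84 within the higher. Non-overlap under Dex+LPS was seen for 4 of 7 members and 29.2% of all genes.

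Dex raised Zfp36l1 above its LPS level in both arms, by 8.68-fold with Brg1 siRNA (log2 change 3.12, SE 0.15, limma adjusted p = 1.11e-11) and 4.46-fold with control siRNA (2.16, SE 0.15, limma adjusted p = 1.22e-09). With Brg1 siRNA the Dex+LPS libraries lay within the range of the vehicle libraries, whereas with control siRNA all 4 were far below it. Dex+LPS against vehicle was not tested here. The effect of silencing was larger under LPS than in vehicle by 1.93 on the log2 scale (SE 0.23, limma adjusted p = 1.82e-05). It was larger under Dex+LPS than under LPS by 0.96 (SE 0.21, limma adjusted p = 0.0138), but that last difference was not called by edgeR (0.86, adjusted p = 0.0846) or DESeq2 (0.87, adjusted p = 0.103) on the recovered reads.

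Zfp36l2, the third family member in these cells, had the highest vehicle level of the family and also fell with LPS. With Brg1 siRNA it stood at 873, 897 and 1033 normalized counts under LPS, against 4501, 4419 and 4277 with vehicle. With control siRNA it stood at 614, 633 and 494 under LPS, against 5368, 5172 and 5088 with vehicle. The fall was 4.72-fold with Brg1 siRNA (log2 change -2.24, SE 0.11, limma adjusted p = 1.62e-12) and 9.01-fold with control siRNA (-3.17, SE 0.11, limma adjusted p = 9.95e-15). The siRNA groups changed places between treatments. With vehicle every Brg1 siRNA library was below every control library, a difference that was not called (-0.24, 95% interval -0.47 to -0.01, limma adjusted p = 0.135). It passed with the compared groups alone (0.00491), with the number series as a term (0.0265) and without the higher series (0.0354). Under LPS every Brg1 siRNA library was above every control library, by 0.69 (SE 0.11, limma adjusted p = 8.72e-05). The effect of silencing in LPS exceeded that in vehicle by 0.93 (SE 0.15, limma adjusted p = 0.000503).

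Under Dex+LPS, Zfp36l2 stood at 1309.8, 1279, 1078 and 1020.3 with Brg1 siRNA and at 975, 892, 894 and 767 with control siRNA. The groups did not overlap, and the difference was 0.41 (SE 0.094, limma adjusted p = 0.00258). Against LPS alone, Dex raised Zfp36l2 by 0.32 with Brg1 siRNA (limma adjusted p = 0.0155) and by 0.61 with control siRNA (limma adjusted p = 7.82e-05). The Brg1 siRNA value lost its call without LPS replicate 1 (0.27, limma adjusted p = 0.0733), LPS replicate 2 (0.29, 0.056) or Dex+LPS replicate 1 (0.27, 0.0522) of that siRNA. The size of the silencing effect was not shown to differ between Dex+LPS and LPS (-0.28, limma adjusted p = 0.351).

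**Figure D2:**
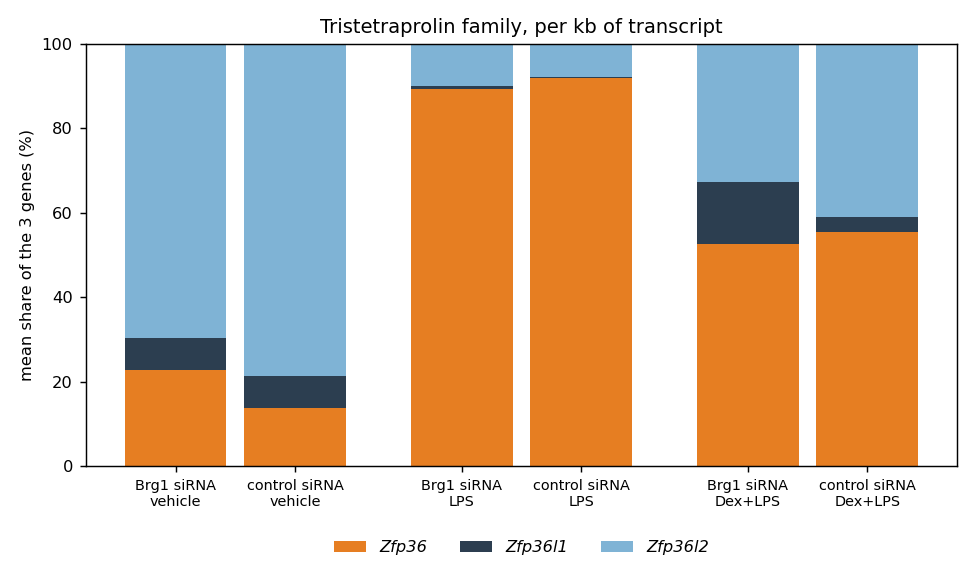
Share of Zfp36, Zfp36l1 and Zfp36l2 in the summed family level per kilobase of transcript (percent), as stacked bars of group means, Brg1 siRNA left of control siRNA in each treatment. Zfp36l2 makes up most of the sum with vehicle, Zfp36 most of it under LPS, and the Zfp36l1 share under Dex+LPS is 14.7% with Brg1 siRNA and 3.45% with control siRNA.

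Levels per kilobase of transcript, from 1 transcript model per gene, allow the family members to be set beside each other. With vehicle, Zfp36l2 made up 69.6% of the family sum with Brg1 siRNA and 78.5% with control siRNA, and Zfp36 made up 22.7% and 13.75%. Under LPS, Zfp36 made up 89.4% with Brg1 siRNA and 91.9% with control siRNA, and Zfp36l1 0.628% and 0.209%. Under Dex+LPS, Zfp36 made up 52.6 ± 12.9% with Brg1 siRNA (40.6 to 69.9%) and 55.6 ± 9.5% with control siRNA (49.3 to 69.5%; SD, n = 4 each). In both arms the highest Zfp36 share was that of replicate 4, of the higher number series. Zfp36l2 made up 32.7 ± 9.43% (20.4 to 41.4%) and 41.0 ± 8.86% (28.0 to 47.1%). In replicate 1 of Brg1 siRNA the Zfp36l2 share, 41.4%, exceeded that of Zfp36, 40.6%. Zfp36l1 made up 14.7 ± 3.51% with Brg1 siRNA and 3.45 ± 0.683% with control siRNA (SD, n = 4 each), and the library ranges, 9.74 to 17.95% and 2.44 to 3.96%, did not overlap. With vehicle the Zfp36l1 share was 7.71% in both arms.

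Zc3h12a, the gene of Regnase-1, was the member with the largest rise under LPS and was not called for Brg1 silencing in any treatment. With Brg1 siRNA it stood at 3672, 3787 and 3599 normalized counts under LPS, against 318, 297 and 288 with vehicle. With control siRNA it stood at 3490.4, 3193 and 3883 under LPS, against 299, 209 and 263 with vehicle. LPS and vehicle libraries did not overlap in either arm, and the rise was 12.2-fold with Brg1 siRNA (log2 change 3.61, SE 0.12, limma adjusted p = 1.1e-14) and 13.8-fold with control siRNA (3.78, SE 0.12, limma adjusted p = 5.79e-15). Under Dex+LPS it stood at 2771, 2742, 2886 and 3555 with Brg1 siRNA and 2748, 2415, 2491 and 3160.1 with control siRNA, so the higher series library, which comes last, was the highest in both. Dex lowered it relative to LPS alone by a log2 change of -0.31 with Brg1 siRNA (limma adjusted p = 0.0388) and -0.38 with control siRNA (limma adjusted p = 0.0111). Both of these small falls depended on scaling: with library totals in place of size factors they were 0.02 and -0.09, and neither passed. The Brg1 siRNA value also missed the threshold by edgeR (adjusted p = 0.0582) and without any 1 of the 3 LPS libraries or of Dex+LPS replicates 1, 2 and 3 of that siRNA (limma adjusted p = 0.0682 to 0.101). The control siRNA value likewise missed the threshold without LPS replicate 3 of that siRNA (-0.31, limma adjusted p = 0.0652). The silencing differences were 0.24 in vehicle (95% interval -0.02 to 0.51), 0.07 in LPS (-0.19 to 0.33) and 0.14 in Dex+LPS (-0.08 to 0.37), none of them called.

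Rc3h1, the gene of roquin-1, rose moderately with LPS and was higher with Brg1 siRNA under Dex+LPS. With Brg1 siRNA it stood at 2192, 2049.9 and 2146 normalized counts under LPS, against 981, 945 and 945 with vehicle. The control siRNA arm held 1786, 1737 and 1608 under LPS, against 901, 1028 and 993 with vehicle. The rise was 2.22-fold with Brg1 siRNA (log2 change 1.15, SE 0.13, limma adjusted p = 2.53e-07) and 1.76-fold with control siRNA (0.81, SE 0.13, limma adjusted p = 1.9e-05). With library totals in place of size factors, the control siRNA rise was 0.23 and missed the threshold (adjusted p = 0.121). Under LPS all Brg1 siRNA libraries were above all control libraries, yet the difference of 0.32 missed the threshold (95% interval 0.04 to 0.59, limma adjusted p = 0.0693). It passed by DESeq2 on the recovered reads (adjusted p = 0.0419).

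Under Dex+LPS, Rc3h1 stood at 1873, 1747, 1618 and 1710.1 with Brg1 siRNA and at 1409.9, 860.3, 1342 and 1359 with control siRNA. All Brg1 siRNA libraries were above all control libraries, and 1 control library, replicate 2, stood far below the other 3. The difference was 0.51 (SE 0.11, limma adjusted p = 0.00175), and within the number series it was 0.57 (3 against 3) and 0.33 (1 against 1). Against LPS alone, Dex+LPS was lower by a log2 change of -0.49 with control siRNA (limma adjusted p = 0.00283), but with library totals it was -0.19 and not called (adjusted p = 0.207). With the compared groups alone it also missed the threshold (limma adjusted p = 0.0536). With Brg1 siRNA the change of -0.30 was not called (limma adjusted p = 0.0567), but it passed by DESeq2 (0.0333) and with the compared groups alone (0.00541). The Dex change was not shown to differ between the arms (difference 0.19, limma adjusted p = 0.659). The silencing effect was 0.34 higher in LPS than in vehicle, which was not called with all groups in the fit (limma adjusted p = 0.275) but was with the compared groups alone (0.0186).

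**Figure D3:**
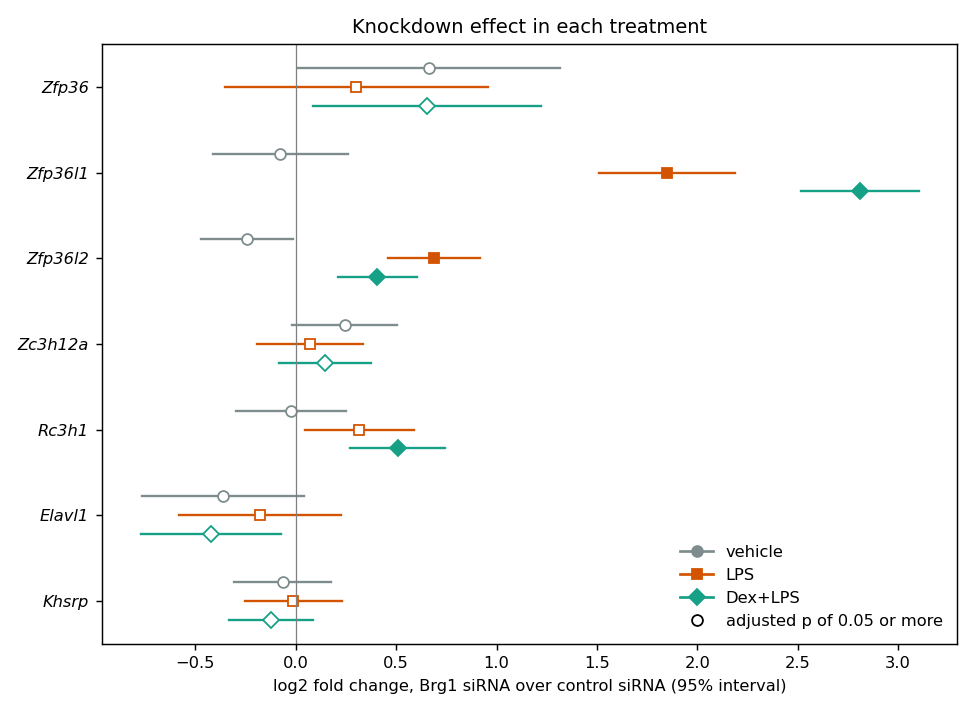
Log2 difference between Brg1 siRNA and control siRNA for each member in vehicle, LPS and Dex+LPS, with 95% intervals from the limma fit and filled points where the adjusted p was under 0.05. The filled points are Zfp36l1 and Zfp36l2 under LPS and Zfp36l1, Zfp36l2 and Rc3h1 under Dex+LPS, all above 0.

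Elavl1, the gene of HuR, was the lowest member with vehicle and rose with LPS. With Brg1 siRNA it stood at 116, 107 and 164 normalized counts under LPS, against 45.4, 53.2 and 59.7 with vehicle. In the control siRNA arm it stood at 149, 145 and 137 under LPS, against 72.0, 50.5 and 85.6 with vehicle. The rise was 2.39-fold with Brg1 siRNA (log2 change 1.26, SE 0.19, limma adjusted p = 1.11e-05) and 2.10-fold with control siRNA (1.07, SE 0.19, limma adjusted p = 6.82e-05). Under Dex+LPS it stood at 139.6, 108, 135 and 138 with Brg1 siRNA and at 170.4, 188, 198 and 144 with control siRNA, and the groups did not overlap. The difference of -0.42 narrowly missed the threshold (95% interval -0.77 to -0.08, limma adjusted p = 0.0563). It passed under 8 of 20 alternatives, among them edgeR (adjusted p = 0.0347) and DESeq2 (0.0373) on the recovered reads and the fit without Dex+LPS replicate 4 of control siRNA (-0.52, limma adjusted p = 0.0316), and it ran to -0.34 (0.163) without Dex+LPS replicate 2 of Brg1 siRNA. Within the number series it was -0.54 (3 against 3) and -0.06 (1 against 1). The silencing difference was -0.36 in vehicle (95% interval -0.77 to 0.04) and -0.18 in LPS (-0.58 to 0.23), neither called, and the vehicle value was -0.57 without vehicle replicate 2 of control siRNA (limma adjusted p = 0.0474) and -0.20 without replicate 3 (limma adjusted p = 0.589). Dex against LPS alone gave 0.03 with Brg1 siRNA (limma adjusted p = 0.915) and 0.28 with control siRNA (95% interval -0.10 to 0.65).

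Khsrp, the gene of KSRP, passed the threshold in none of the 9 comparisons, and its group means all lay between 829 and 997. It averaged 829 ± 47.7 with Brg1 siRNA and 868 ± 61.5 with control siRNA in vehicle, and 974 ± 64.2 and 982 ± 68.7 in LPS (SD, n = 3 each). In Dex+LPS it averaged 915 ± 130.2 with Brg1 siRNA and 997 ± 139 with control siRNA (SD, n = 4 each). The silencing differences were -0.07 in vehicle (95% interval -0.31 to 0.18), -0.01 in LPS (-0.25 to 0.23) and -0.12 in Dex+LPS (-0.33 to 0.09). The LPS change was 0.23 with Brg1 siRNA (95% interval -0.01 to 0.47) and 0.18 with control siRNA (-0.06 to 0.42). Its direction under LPS depended on scaling: with library totals, under which the median over all genes was itself -0.72 with Brg1 siRNA and -0.61 with control siRNA, Khsrp stood at -0.45 and -0.40 and passed. As a rise it passed with Brg1 siRNA under the replicate block (0.23, limma adjusted p = 0.014), with the compared groups alone (0.0206) and without the higher series (0.21, 0.0483), and with control siRNA under the block (0.18, 0.0496).

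**Figure D4:**
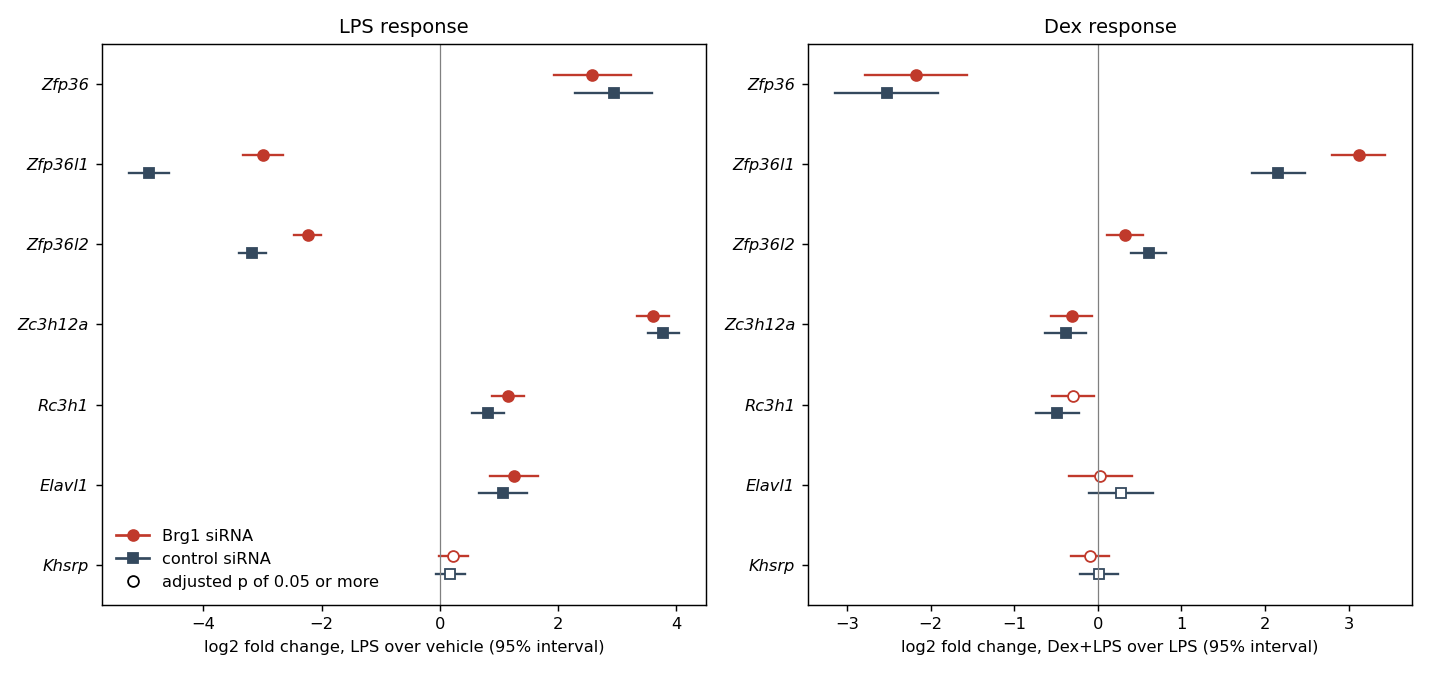
Log2 change of each member for LPS against vehicle and for Dex+LPS against LPS, with Brg1 siRNA beside control siRNA and 95% intervals from the limma fit. Zfp36 and Zc3h12a rise with LPS and are lower with Dex, Zfp36l1 and Zfp36l2 do the reverse, and the arms differ most for Zfp36l1.

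Per kilobase of transcript, the order of the members changed with treatment. With vehicle, Zfp36l2 was highest, at 1246 with Brg1 siRNA and 1476 with control siRNA, and Elavl1 lowest, at 9.19 and 12.1. Under LPS, Zfp36 was highest, at 2473 and 2003, followed by Zc3h12a at 1338 and 1278, and Zfp36l1 was lowest, at 17.3 and 4.47. Under Dex+LPS, Zc3h12a was highest, at 1085 with Brg1 siRNA and 981 with control siRNA, and Zfp36 stood at 581 and 356.5. As a description over the 20 libraries, which fall into 6 groups, the genes with the most similar pattern on the log2 scale were Parp10 for Zfp36 (Pearson r = 0.983), Nuak1 for Zfp36l1 (0.961), Pacc1 for Zfp36l2 (0.988) and Il27 for Zc3h12a (0.997). Clcn5 was nearest to Rc3h1 (0.983), Mex3a to Elavl1 (0.967) and Sun2 to Khsrp (0.866). Libraries of a group share siRNA and treatment, so the 20 points are not independent.

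The counting could blur some members. The 5 members Zfp36, Zfp36l1, Zfp36l2, Elavl1 and Khsrp overlap an annotated gene on the opposite strand, and the strand counted is not given in the sources used here. Rc3h1 overlaps 3 annotated models on its own strand, which counting by strand would not separate. Its transcripts share 0% of their 31-base words with those of other annotated genes. Among the antisense partners only Ccl25, opposite Elavl1, is listed in the table. Of the 31-base words of its transcript, Zfp36l1 shares 6.79% with other genes, among them the pseudogene Zfp36l1-ps, and Khsrp shares 6.92%, so a small part of their reads could be assigned elsewhere.

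The transcripts that tristetraprolin is known to bind through AU-rich elements in mouse macrophages moved in both directions with Brg1 silencing. Of 20 listed and tested, 5 rose and 3 fell with vehicle (median log2 difference 0, against 0.005 over all genes tested), 10 rose and 5 fell under LPS (median 0.32, against 0.0084) and 12 rose and 3 fell under Dex+LPS (median 0.53, against 0.0087). Over all genes tested, 20.1%, 33.1% and 34.3% were called, with 17.3% called higher in LPS and 19.0% in Dex+LPS. Il6 and Il23a were 0 in every vehicle library, so the vehicle median of 0 rests in part on undetected transcripts. That median cannot be read as a lack of effect in vehicle. With library totals the counts were 4 and 4, 8 and 5, and 12 and 3. Il1a, Plaur and Tnf rose, and Fos and Myc fell, in all 3 treatments. The vehicle rise of Il1a is at the floor, with means of 7.01 with Brg1 siRNA and 1.68 with control siRNA. Every vehicle library was under the filter value of 10 for Il1a, which was tested through its treated libraries. Tnf averaged 203920 ± 8332.8 normalized counts with Brg1 siRNA and LPS and 107690 ± 3415.2 with control siRNA and LPS (SD, n = 3 each; log2 difference 0.92, limma adjusted p = 1.61e-09). Csf2, which encodes the growth factor GM-CSF and whose site is printed above, averaged 3243 ± 370 with Brg1 siRNA and 601 ± 65.4 with control siRNA under LPS (SD, n = 3 each; 2.43, limma adjusted p = 3.53e-07). Under Dex+LPS Csf2 averaged 31.5 ± 2.79 and 6.73 ± 1.61 (SD, n = 4 each; 2.09, limma adjusted p = 2.81e-07). Il6, whose site is also printed above, was lower, with 8920 ± 1497 with Brg1 siRNA and 16088 ± 691 with control siRNA under LPS (SD, n = 3 each; -0.86, limma adjusted p = 4.61e-05). Fos, an immediate early transcription factor, fell most under LPS (-3.57). Zfp36l1 and Zfp36l2 were higher with Brg1 siRNA in the same LPS and Dex+LPS libraries, and whether that bears on the targets was not tested.

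With LPS, 18 of these 20 transcripts rose with Brg1 siRNA (median 7.75) and 17 with control siRNA (median 7.51), and 2 fell in each. Among all genes tested, 35.4% and 36.0% were called higher, with medians of -0.055 and -0.037. Il6 and Il23a were 0 in every vehicle library, and Csf2 and Lif were under 1 there. Il1a, Cxcl1 and Nos2 were also under the filter value of 10 in every vehicle library. Their highest vehicle values were 7.82 and 9.38 with Brg1 siRNA for Il1a and Cxcl1, and 9.21 with control siRNA for Nos2. All of these transcripts met the filter only through treated libraries, so they could hardly do other than rise. The counts of rises include them, so the shares of all genes are not an even comparison. Fold changes of these transcripts depend on the value of 1 added before the log, and the medians include them. Dex+LPS against LPS lowered 17 and raised 1 with Brg1 siRNA (median -1.58), and lowered 19 with control siRNA (median -1.78). Over all genes tested, 23.0% and 25.2% were called lower, with medians of -0.015 and -0.0066. Transcripts with stem-loops known for Regnase-1 and roquin, of which 11 of 14 were tested, rose and fell in 2 each with silencing in vehicle, in 5 and 1 under LPS and in 7 and 2 under Dex+LPS, with medians of 0, 0.27 and 0.29, against 0.005, 0.0084 and 0.0087 over all genes. Of all genes, 20.1%, 33.1% and 34.3% were called. Without the higher number series the last counts were 3 and 2 under LPS and 5 and 2 under Dex+LPS. With vehicle, Il6 and Calcr of this list were 0 in every library, so its vehicle median of 0 rests in part on undetected transcripts. Il12b, a subunit of interleukin-12, was the largest rise of that list in both LPS (1.43, limma adjusted p = 0.014) and Dex+LPS (2.09, limma adjusted p = 0.00021). Nfkbiz, an inducible NF-kB cofactor, fell with vehicle (-1.03, limma adjusted p = 2.74e-08) and was higher with silencing in LPS (0.47, limma adjusted p = 9.54e-05), so the sign turned and the effects differed by 1.51 (limma adjusted p = 4.55e-08). Tnf, Il6 and some others stand in both lists.

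**Figure D5:**
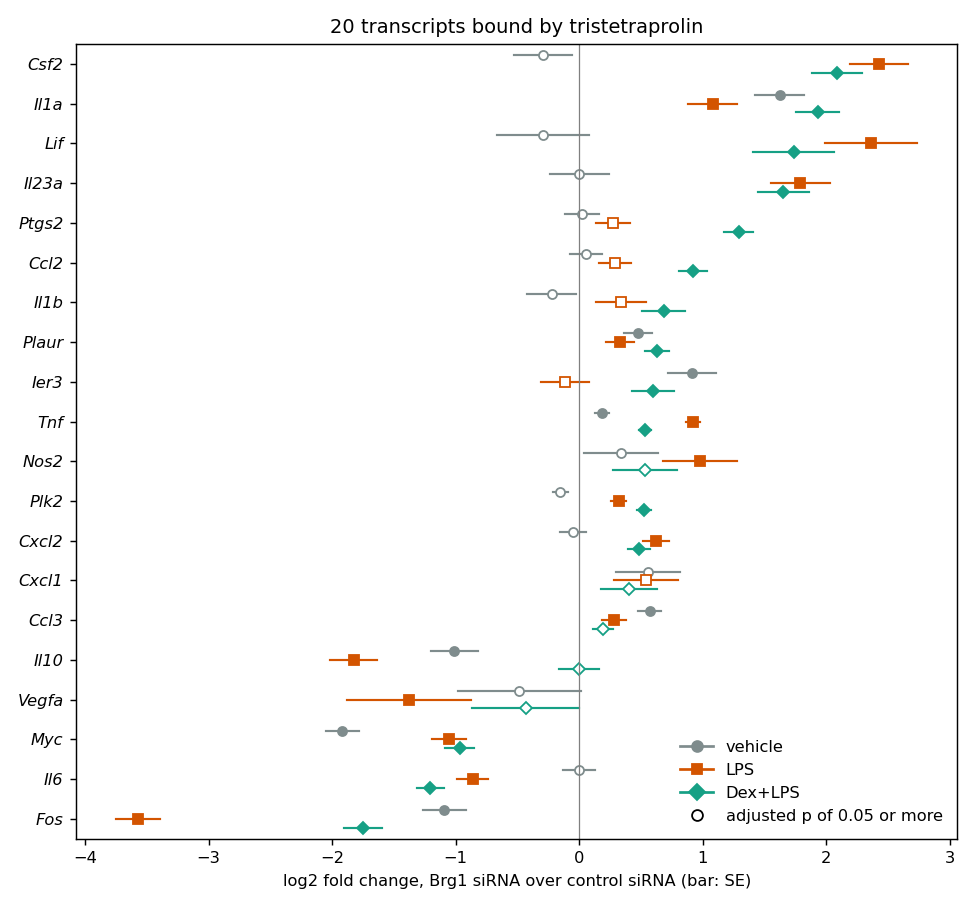
Log2 difference between Brg1 siRNA and control siRNA for the 20 transcripts known to be bound by tristetraprolin, in vehicle, LPS and Dex+LPS, with bars for the standard error and filled points where the limma adjusted p was under 0.05. Points spread to both sides of 0, from Fos at -3.57 to Csf2 at 2.43 under LPS.

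The genes of the decay machinery that these proteins recruit were called for silencing in both directions, and their counts stand against 20.1% of all genes in vehicle, 33.1% in LPS and 34.3% in Dex+LPS. Of 19 CCR4-NOT subunits and adaptors, 1 rose and 4 fell in vehicle, and 4 rose and 3 fell in each of LPS and Dex+LPS (medians -0.14, -0.038 and 0.035). The antiproliferative adaptor Btg1 had the largest rise, at 1.03 in LPS and 1.18 in Dex+LPS (limma adjusted p = 1.55e-09 and 3.28e-11), and fell by 0.49 in vehicle. Of 16 decapping and 5′ to 3′ decay genes, 1 rose and 1 fell in vehicle and in LPS, and 1 rose and 2 fell in Dex+LPS, with the decapping activator Patl1 the gene that rose in each (0.23, 0.37 and 0.58). The medians of that list were 0.023, -0.10 and -0.14. Of 17 exosome genes tested, 0 were called by limma in vehicle (3 at an unadjusted p under 0.05, 0 by edgeR and 0 by DESeq2), and 2 rose and 3 fell in each of LPS and Dex+LPS (medians -0.075, -0.16 and -0.064). The nuclease Dis3 was lower in LPS by a log2 difference of -1.69. Of the 15 other RNA-binding proteins of AU-rich elements and stem-loops that were tested, 1 rose and 1 fell in vehicle, 2 rose and 1 fell in LPS, and 5 rose and 1 fell in Dex+LPS (medians -0.026, -0.036 and 0.28). Among them Rc3h2, the paralogue of Rc3h1, rose in LPS by 0.35 (limma adjusted p = 0.00463). With library totals, falls outnumbered rises in LPS in all 4 lists, at 4 to 2 for CCR4-NOT, 3 to 1 for decapping, 6 to 0 for the exosome and 2 to 1 for the other RNA-binding proteins.

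Genes that set the phosphorylation of tristetraprolin or the stability of Regnase-1 are given against the shares of all genes called, 72.8% for LPS with Brg1 siRNA and 73.0% with control siRNA, and 44.4% for Dex with Brg1 siRNA and 48.7% with control siRNA. Of 20, LPS raised 14 and lowered 3 with Brg1 siRNA and raised 14 and lowered 5 with control siRNA, and Dex against LPS lowered 14 and raised 2 with Brg1 siRNA and lowered 13 and raised 2 with control siRNA. With library totals the LPS counts were 10 and 8 with Brg1 siRNA and 10 and 7 with control siRNA, and the Dex counts 8 lower and 5 higher with Brg1 siRNA and 7 lower and 4 higher with control siRNA. The protease Malt1, which cuts Regnase-1, rose with LPS by 4.98 with Brg1 siRNA and 4.51 with control siRNA, and Mapkapk2, the kinase that phosphorylates tristetraprolin, by 3.22 and 3.32 (limma). Dusp1, the phosphatase of the p38 kinase above Mapkapk2, was the largest rise of the list with Dex, at 2.16 with Brg1 siRNA (limma adjusted p = 1.46e-10) and 1.91 with control siRNA (5.65e-10). For silencing, 20.1% of all genes were called in vehicle, 33.1% in LPS and 34.3% in Dex+LPS. Silencing raised 2 and lowered 3 of the 20 in vehicle, raised 7 and lowered 4 in LPS and raised 5 and lowered 4 in Dex+LPS (medians -0.096, 0.043 and 0.042). With library totals these counts became 2 and 8, 4 and 6, and 2 and 6. Mapkapk3 was among those that rose in all 3 (0.49, 0.41 and 0.65), and Mapkapk2 fell in LPS (-0.32) and Dex+LPS (-0.45).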

How the data were processed

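RNA sequencing of 20 libraries was used. The authors deposited a table of normalized signal per gene, DESeq-normalized per the file headers, with their own log2 fold changes, standard errors (a score here) and p-values, which were not used for the results above. The submitters' processing notes name R 4.1.0, Salmon 1.4.0, DESeq2 and DESeq, and as builds GRCm38.p6 and mm10. Each value is a read number scaled by library, of which 99.95% came out as whole reads within 0.01. The kit is stranded, and the strand counted is not given in the sources used here.

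A gene needed a value of 10 in 3 samples to be tested, which 12061 met, and log2(value + 1) was tested with limma 3.58.1 (limma-trend, R 4.3.3) in a single fit of the 6 groups, with Benjamini-Hochberg adjustment within each of 9 comparisons at an adjusted p under 0.05. The plan named edgeR for counts, and the normalized unit led to limma. Alternatives were pseudocounts, no filter, TMM and library totals, edgeR 4.0.16 and DESeq2 1.42.0 on the recovered reads, fits of the compared groups alone, a replicate block, the number series, and each library left out. With edgeR on those reads, 2503, 3868 and 4156 genes were called for silencing in vehicle, LPS and Dex+LPS. The members and gene lists were chosen with earlier results of these data known. Besides the members and Smarca4, named genes were up to 2 called rises and 2 called falls per list and comparison, with some described in other comparisons too, and the gene most similar to each member. The genes named as shared by all 3 treatments (Il1a, Plaur, Tnf, Fos, Myc) and the named comparisons outside that rule were chosen after their values were seen. Sequences and positions are from GENCODE vM21 (GRCm38).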

Additional observations from a re-analysis of the deposited data

Results flagged for a closer look

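Of the groups of 4 libraries, 2 held a member with a library far from the rest. Rc3h1 stood at 860.3 normalized counts in replicate 2 of control siRNA with Dex+LPS, against 1342 to 1409.9 in the other 3. Elavl1 stood at 108 in replicate 2 of Brg1 siRNA with Dex+LPS, against 135 to 139.6 in the other 3. The rule was applied to each of the 7 members in each of these groups. Chance flags about 1 in 20 such sets of 4 values.

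The effect of Brg1 silencing differed between treatments by a direct test for 3 results. For Zfp36l1 it was higher in LPS than in vehicle by 1.93 on the log2 scale (limma adjusted p = 1.82e-05), and higher in Dex+LPS than in LPS by 0.96 (limma adjusted p = 0.0138). For Zfp36l2 it was higher in LPS than in vehicle by 0.93 (limma adjusted p = 0.000503).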

How the results depend on the processing

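Of 63 member results, 29 passed, and 23 of these passed under every alternative. Among them are the silencing calls of Zfp36l1 and Zfp36l2 in LPS and Dex+LPS and of Rc3h1 in Dex+LPS. The other 6 were lost under some alternative: 1 of them, Zc3h12a for Dex with Brg1 siRNA, under 10 of 19. Of the 34 that did not pass, 12 passed under some alternative. Members called for silencing in vehicle, 0 of 7, became 2 with the compared groups alone, 2 with the number series as a term and 2 without the higher series. In Dex+LPS, 3 became 5 with the number series as a term and 5 without the higher series. All genes called for silencing under these settings are not given here, so these counts do not set the members apart. Replicate numbers did not pair the libraries (correlations of same-numbered deviations -0.166 to 0.406, the highest from replicates 4 of Dex+LPS, both of the higher series), and with them as a block 1 member was called in vehicle and 5 in Dex+LPS. Leaving out a library gave 0 to 1 members in vehicle, 3 to 5 in Dex+LPS and 2 to 4 for Dex with Brg1 siRNA. Over all genes it gave 1860 to 1968 in vehicle, 3600 to 4077 in Dex+LPS and 4614 to 5233 for Dex with Brg1 siRNA. With every library kept these were 2430, 4131 and 5352. The difference in silencing effect between Dex+LPS and LPS, called for 1 member and 479 genes, became 0 members by edgeR and 0 by DESeq2, and 727 genes by DESeq2, 319 with the compared groups alone, 730 with the number series term and 300 without the higher series. The causes were not tested. Library totals moved higher and lower calls for LPS to 2219 and 7328 with Brg1 siRNA, against 4275 and 4511, and to 2434 and 6850 with control siRNA, against 4341 and 4464. For Dex they gave 5388 and 1232 with Brg1 siRNA, against 2575 and 2777, and 5269 and 1647 with control siRNA, against 2827 and 3041. For silencing they gave 1334 and 2919 in LPS, against 2089 and 1906, and 1653 and 2847 in Dex+LPS, against 2289 and 1842. For the difference in silencing effect between LPS and vehicle they gave 567 and 921, against 771 and 609. Signs turned with library totals for Zc3h12a (silencing in LPS -0.069, Dex with Brg1 siRNA 0.022), Rc3h1 (Dex with Brg1 siRNA 0.037) and Khsrp (LPS -0.45 with Brg1 siRNA and -0.40 with control siRNA, Dex with Brg1 siRNA 0.23, LPS interaction -0.045). They turned for Khsrp with the block (Dex with control siRNA -0.076) and without the higher series (silencing in LPS 0.013, Dex with control siRNA -0.030), and for Elavl1 without the higher series (Dex with Brg1 siRNA -0.12). With 1 library left out, signs turned within the range for Rc3h1 (silencing in vehicle -0.079 to 0.016), Elavl1 (Dex with Brg1 siRNA -0.091 to 0.21), Khsrp (silencing in LPS -0.064 to 0.044, Dex with control siRNA -0.079 to 0.068, LPS interaction -0.0029 to 0.11) and Zc3h12a (Dex interaction -0.012 to 0.15). Of these, 1 had been called, Zc3h12a for Dex. Depth limits Zfp36l1 under LPS in both arms and under Dex+LPS with control siRNA, and Elavl1 with vehicle, which lay under 100 normalized counts.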
